A study of Mus musculus with 12 samples.

Results

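Gastrin-knockout mice that had received gastrin were compared with wild-type mice, to see which transcripts of the fundic mucosa remained away from the wild-type level after the hormone had been replaced. The comparison rests on 6 of the 12 arrays of the study: 3 of gastrin-infused gastrin knockout and 3 of wild-type fundus, chosen by their titles, and on all 22626 probe sets that are not array controls. The gastrin-infused mice lacked the gastrin gene and received gastrin for 1 week. The protocol of the wild-type samples names about 2 to 4 mice without saying that their RNA was pooled, and no infusion is described for them. The other 6 arrays were of gastrin knockout infused with saline for 1 week (3 arrays; males of 2 months, the only group with a stated age and sex) and of a double knockout of gastrin and cholecystokinin (CCK; 3 arrays, no infusion described). Their values stand beside those of the main comparison. Mucosa scraped from the fundus, where the stomach secretes its acid, gave the RNA of every sample, which was read as 1 intensity per probe set on a one-colour short-oligonucleotide array. Genotype, the infused hormone and the infusion itself differ together between the gastrin-infused and the wild-type mice and cannot be told apart in this comparison alone. The labels do not state whether the replicates of a group came from distinct mice, so p-values measure only how far these samples spread, and that spread may be technical.

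Gastrin is a peptide hormone made by G cells of the antrum and released into the blood after a meal. It acts on the CCK-B receptor of enterochromaffin-like (ECL) cells, which make histamine with the enzyme histidine decarboxylase (Hdc) and store it in granules with the chromogranins, and of parietal cells, which secrete acid through the proton pump of Atp4a and Atp4b. Gastrin is also known as a growth factor of the fundic mucosa, and mice without it have few active ECL cells and secrete little acid.

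The arrays had like medians (403 to 421 intensity units) and like shares of values below 0 (5.52% to 6.43%). Log2 profiles of 2 arrays correlated at 0.955 to 0.965 within the 2 groups compared and at 0.951 to 0.963 between them. RNA integrity was followed by the Gapdh control probe sets: signal at the 3' end over that at the 5' end was 1.51, 2.00 and 0.983 on the wild-type arrays and 1.17 to 1.21 on the gastrin-infused arrays. The spiked BioC control was higher in the gastrin-infused group (5789 to 6892) than in wild type (4435 to 5619). On gastrin-infused replicate 1, smooth muscle transcripts stood far above all other arrays: Myh11, the smooth muscle myosin heavy chain, read 2483 against 369 and 277 on its replicates and 191 to 275 in wild type.

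The targeted gene was read first. Gast, the gastrin precursor, gave 596, 318 and 823 intensity units in the 3 wild-type samples and -72, -34 and -43 in the gastrin-infused knockout. It lay at 37, -8 and 31 after saline and at -64, -35 and -162 in the double knockout. No knockout array reached the lowest wild-type value. Against the noise level of the arrays, Gast was at least 6.06-fold lower in the gastrin-infused knockout (fitted log2 difference -5.07 ± 0.36 SE, adjusted p = 0.00146, limma with Benjamini-Hochberg adjustment; fitted values of genes within the noise depend on the floor of 16). Cck, the other peptide of the family, was dim throughout, at 17, 98 and 48 in wild type and 25, -9 and 115 after gastrin.

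Across the whole array, few transcripts were off wild type after gastrin by the test. At adjusted p under 0.05, 25 of 22626 probe sets (0.11%) passed: 15 were higher in the gastrin-infused knockout (0.0663%) and 10 lower (0.0442%). They stood for 22 named genes and 1 probe set without a gene name. At unadjusted p under 0.05 there were 2619 (11.6%). In all 25 the 3 gastrin-infused arrays lay outside the range of the 3 wild-type arrays, a state that 7.31% of all probe sets met as higher and 9.41% as lower. The median log2 difference over 12393 genes, with 1 probe set each, was 0.00, and 48.8% of them lay above 0.

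**Figure D1:**
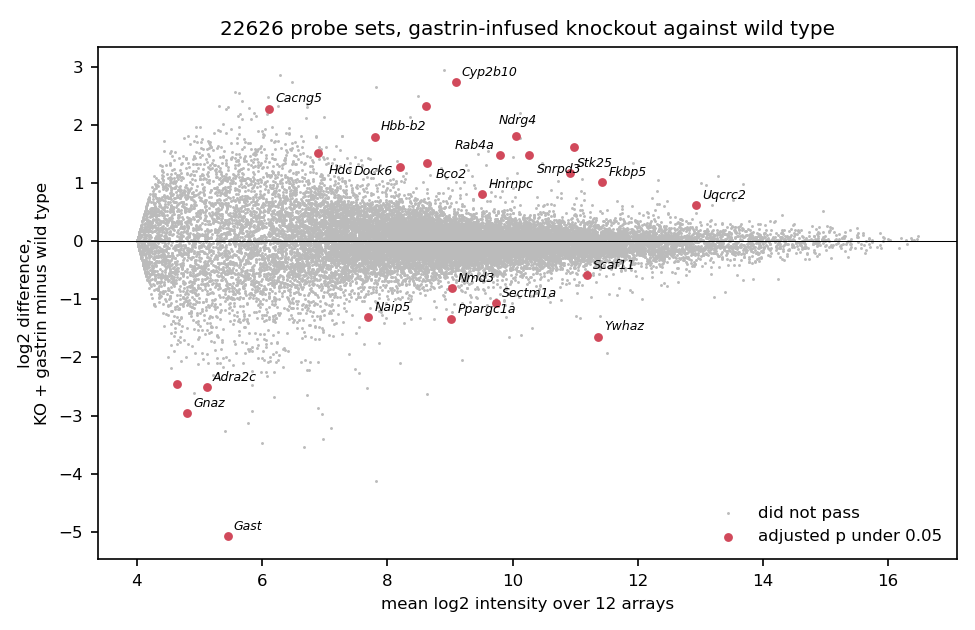
Log2 difference between gastrin-infused knockout and wild type (vertical axis) against mean log2 intensity over 12 arrays (horizontal axis), 1 point per probe set. The 25 probe sets that passed are red and most others lie close to 0, with Gast lowest at -5.07 and Cyp2b10 highest among those that passed at 2.74.

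Many calls were lost when 1 array was left out. Of the 25, 8 passed whichever of the 6 arrays was left out: Gast, Gnaz, Sectm1a, Uqcrc2, Rab4a, both Cyp2b10 probe sets and the unnamed probe set. These leave-outs kept the other groups in the fit. With only the 6 compared arrays fitted, 2 of the 25 passed, Gnaz and the unnamed probe set, among 3 calls in all. For Gast, Gnaz and the unnamed probe set every gastrin-infused value was below 0 and was raised to the floor, so that group had no spread. Leaving out any gastrin-infused array could not move their differences (-5.07, -2.95 and -2.46), and those leave-outs do not test these calls. In the fit of 6 arrays, too, the gastrin-infused group of Gnaz and of the unnamed probe set had no spread. Calls were lost for 17 probe sets without gastrin-infused replicate 2, 12 without wild-type replicate 1, 11 without gastrin-infused replicate 3, 10 without gastrin-infused replicate 1, 8 without wild-type replicate 2 and 7 without wild-type replicate 3, and no sign turned. With the Gapdh ratio as a covariate 10 of the 25 passed, and without the 2 wild-type arrays of high ratio 8 passed, in each case with all 25 signs kept. Of the 8 that passed every leave-out of 1 array, 6 passed without those 2 arrays and both Cyp2b10 probe sets did not.

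The enzyme of histamine synthesis ended above wild type. One Hdc probe set read 490, 686 and 416 in wild type, -40, -48 and -90 after saline, -54, -2 and -86 in the double knockout, and 1390, 1926 and 1225 after gastrin. The lowest gastrin-infused value was above the highest wild-type value, and neither group without gastrin rose above 0 on this probe set. The rise over wild type was 1.52 ± 0.20 log2 units (SE; 2.86-fold, n = 3 and 3, limma adjusted p = 0.0307). A second Hdc probe set gave 413, 672 and 717 in wild type and 1229, 1897 and 1133 after gastrin, also with no overlap. Its spread over the 12 arrays was wider and it did not pass (1.24 ± 0.85, adjusted p = 0.628). Within the compared groups both sets spread alike (SD 140 in wild type and 366 after gastrin on the first, 164 and 416 on the second). The second read 212, 73 and 22 after saline and 71, 12 and 93 in the double knockout. The first was below 0 on all those arrays, was raised to the floor there and added no spread. Its small SE, and so its call, rests in part on arrays outside the comparison. The first probe set no longer passed without wild-type replicate 1 (adjusted p = 0.0968), wild-type replicate 3 (0.0546), gastrin-infused replicate 1 (0.0737) or gastrin-infused replicate 2 (0.0605).

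Of 15 measured genes of the ECL cell and its secretory granules, 13 lay above 0 with a median of 0.56, and 0 passed with the probe set that stands for the gene; 5 were higher and 1 lower at unadjusted p under 0.05, where 5.49% of all genes were higher. In 6 genes the gastrin-infused arrays lay wholly above wild type, against 7.86% of all genes. Leaving out each array in turn gave medians of 0.41 to 0.63. Chgb, chromogranin B, a granule protein, read 877, 1927 and 935 in wild type and 4794, 7011 and 4587 after gastrin. The groups were far apart, yet the log2 difference of 2.20 ± 0.39 missed the threshold (adjusted p = 0.0829). After saline Chgb was at 573, 610 and 364. Chga, chromogranin A, read 6049, 10288 and 7063 in wild type against 8765, 13433 and 10235 after gastrin, and these ranges overlapped (0.49 ± 0.21, adjusted p = 0.427). Pam, which amidates peptide hormones, read 2724, 3044 and 2770 against 4248, 4287 and 4004 (0.56 ± 0.10, adjusted p = 0.0875). Pcsk1, a prohormone convertase, gave 270, 243 and 287 against 412, 530 and 369 (0.70 ± 0.16, adjusted p = 0.182). Both sets of 3 were separate, and neither gene passed. In bulk mucosa, more cells of a type and more RNA per cell cannot be told apart.

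**Figure D2:**
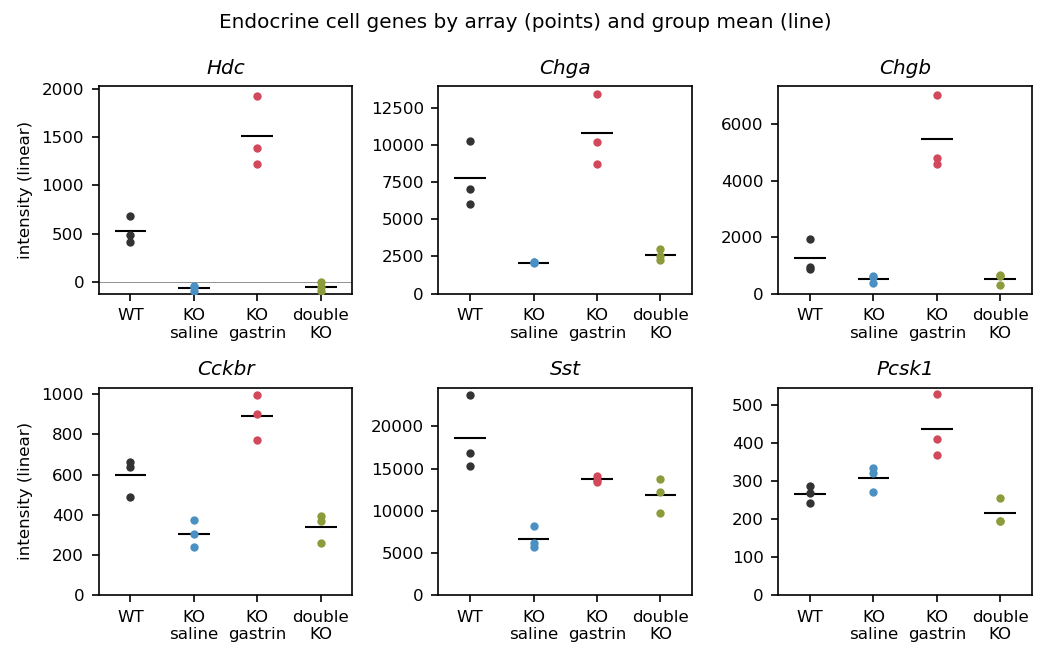
Intensity of 6 endocrine genes on each array (points) with group means (lines), on linear axes; WT, wild type. Hdc, Chgb, Cckbr and Pcsk1, by the probe sets drawn, lie after gastrin above every wild-type array, Chga overlaps it, and Sst lies below it.

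The start regions of Hdc, Chga and Chgb are shown because Hdc passed and the granule genes beside it differed in size of response. Each window runs from 250 bases before to 50 after the gene's start, from RefSeq on GRCm38.p6, in the direction of the gene. Capitals mark matches, on either strand, to GGGCGG (a GC box, the motif of Sp factors), TGACG and TGACGTCA (the short and full cAMP response element; the full one holds the short one on both strands).
Hdc (chr2:126618629-126618928, minus strand): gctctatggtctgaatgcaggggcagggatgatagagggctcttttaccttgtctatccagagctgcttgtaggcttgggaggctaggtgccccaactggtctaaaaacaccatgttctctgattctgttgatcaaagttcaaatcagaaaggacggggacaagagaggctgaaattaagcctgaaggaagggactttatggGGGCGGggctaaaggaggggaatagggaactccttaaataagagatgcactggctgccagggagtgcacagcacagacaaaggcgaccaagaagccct
Chga (chr12:102554691-102554990, plus strand): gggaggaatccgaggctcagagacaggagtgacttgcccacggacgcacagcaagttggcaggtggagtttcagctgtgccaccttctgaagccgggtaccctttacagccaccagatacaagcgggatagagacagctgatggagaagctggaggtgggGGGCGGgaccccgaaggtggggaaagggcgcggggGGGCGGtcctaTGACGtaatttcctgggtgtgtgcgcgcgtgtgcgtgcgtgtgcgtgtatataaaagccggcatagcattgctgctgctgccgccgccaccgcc
Chgb (chr2:132781392-132781691, plus strand): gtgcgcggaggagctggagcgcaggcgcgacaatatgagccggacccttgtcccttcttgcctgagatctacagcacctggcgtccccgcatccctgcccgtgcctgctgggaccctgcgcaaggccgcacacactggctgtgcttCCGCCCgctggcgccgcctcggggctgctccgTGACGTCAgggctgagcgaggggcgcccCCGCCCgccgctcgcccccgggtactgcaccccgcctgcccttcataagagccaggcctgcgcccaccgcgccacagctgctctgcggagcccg
Hdc holds 1 GC box at bases 203 to 208. Chga holds GC boxes at 161 to 166 and 196 to 201 and TGACG at 207 to 211. Chgb holds the full element at 179 to 186 and, on the reverse strand, GC boxes at 147 to 152 and 207 to 212. Of 32851 windows of this length, 35.7% hold a GC box, 20.8% hold TGACG and 1.79% hold TGACGTCA. The matches are letters in a window and say nothing of binding.

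Receptors on the path from gastrin to acid lay above wild type without passing. Cckbr, the gastrin receptor, read 639, 665 and 488 in wild type and 773, 901 and 996 after gastrin on its brighter probe set (0.58 ± 0.22, adjusted p = 0.357). Its other probe set read 496, 308 and 557 against 723, 692 and 399, and there the groups overlapped (0.41 ± 0.28, adjusted p = 0.624). Hrh2, the histamine receptor of parietal cells, read 1221, 1065 and 1191 against 1512, 1514 and 1481 (0.38 ± 0.09, adjusted p = 0.191), with no overlap. Sstr2, the somatostatin receptor that restrains ECL cells, read 847, 931 and 1051 against 1303, 1132 and 1546 (0.49 ± 0.14, adjusted p = 0.264). Its ligand Sst, somatostatin, pointed the other way, at 16905, 23726 and 15346 against 13649, 13417 and 14138, with a difference of -0.42 and a 95% interval from -0.86 to 0.03. Ghrl, the ghrelin of a separate endocrine cell, was at 33541 to 42846 and 37256 to 40888 (0.07, interval -0.16 to 0.30). Of 14 genes of the gastrin and CCK system, Gast alone passed, and the median was 0.31.

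No gene of the parietal cell passed, and the pump itself lay close to wild type. Of 18 parietal genes the median was 0.05 (11 above 0 and 7 below), and 4 were higher and 0 lower at unadjusted p under 0.05, where 5.49% of all genes were higher. Atp4a, the pump's ion-moving subunit, read 56627, 68031 and 58071 in wild type and 61110, 56477 and 58502 after gastrin. The difference was -0.05 with a 95% interval from -0.30 to 0.20. Atp4b, its partner subunit, differed by 0.05 (interval -0.16 to 0.25). Kcne2, a subunit of the potassium channel that serves the pump, differed by 0.03 (-0.28 to 0.33). Kcnq1, the pore of that channel, had the wider interval of -0.60 to 0.46 around -0.07. Saline-infused values were lower for these genes, for instance 36260, 44845 and 35107 for Atp4a, on arrays that also serve as controls elsewhere. In 5 of the 18 the gastrin-infused arrays lay wholly above wild type, against 7.86% of all genes, among them Aqp4, the water channel of parietal cells, at 1382, 2103 and 2034 against 2407, 2453 and 2162 (0.37 ± 0.16, adjusted p = 0.430; 0.15 and overlapping on its other probe set).

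Chief cell and mucous cell genes gave 0 calls as well. Among 11 chief cell genes the median was 0.03, and the pepsinogen Pgc differed by 0.02 (interval -0.15 to 0.19). Pga5, another pepsinogen, stood apart from that: 11977, 12499 and 10711 in wild type and 7450, 5343 and 5431 after gastrin. These groups did not overlap, and the difference of -0.96 ± 0.17 missed the threshold (adjusted p = 0.0829). After saline Pga5 was at 7754, 10983 and 11539. Of the 11 chief cell genes, 2 lay wholly below wild type after gastrin, Pga5 among them, against 9.01% of all genes, and 0 lay wholly above. Among 10 surface mucous genes the median was 0.00 with no separated gene; Muc5ac, the surface mucin, differed by -0.12 (interval -0.35 to 0.12) and Tff1, its trefoil peptide, by 0.05 (-0.20 to 0.29). Among 5 mucous neck genes the median was -0.06, and Tff2, the trefoil peptide of neck cells, differed by -0.10 (-0.28 to 0.09).

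Cyp2b10, a cytochrome P450 induced by drugs and bile acids through nuclear receptors, had the largest rise among genes named here. One probe set read 253, 231 and 233 in wild type, 778, 491 and 372 after saline, 1744, 1287 and 1816 after gastrin and 485, 415 and 433 in the double knockout. Gastrin-infused arrays were highest throughout, with the saline group between them and wild type (2.74 ± 0.24, 6.69-fold, adjusted p = 0.00493). A second probe set passed in the same direction (165, 201 and 203 against 1025, 724 and 1172; 2.34 ± 0.21, adjusted p = 0.00501), and the remaining one did not (1.26 ± 0.27, adjusted p = 0.150). Both passing sets carry the maker's _s_at suffix for probes that match more than 1 transcript, so near-identical Cyp2b genes could share in the signal. Without the 2 wild-type arrays of high Gapdh ratio the adjusted p was 0.0726 for the first set and 0.0820 for the second, so both calls were lost. Of 41 drug and steroid metabolism genes, Cyp2b10 was the single call, and the median was -0.09, with 15 above 0 and 25 below. At unadjusted p under 0.05, 5 were higher and 3 lower (5.49% and 5.62% of all genes). In 7 the gastrin-infused arrays lay wholly above wild type and in 4 wholly below (7.86% and 9.01% of all genes). Nr1i2, a nuclear receptor that switches on such enzymes, read 454, 477 and 495 in wild type and 939, 760 and 810 after gastrin (0.81 ± 0.34, adjusted p = 0.403). Sult1a1, a sulfotransferase, read 562, 651 and 769 against 1757, 2933 and 1411 (1.56 ± 0.24, adjusted p = 0.0609). Neither of these passed, though their groups were separate.

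Ndrg4, a member of the Ndr family best known in nerve and heart, rose on both of its probe sets. The first gave 652, 997 and 626 in wild type and 2111, 3113 and 2664 after gastrin (1.81 ± 0.21, 3.50-fold, adjusted p = 0.022), and the second gave 1396, 1680 and 1429 against 3775, 5528 and 4738 (1.63 ± 0.19, adjusted p = 0.0184). Saline-infused values of the first were 1456, 1237 and 980, all below the gastrin-infused arrays, and the lowest of them lay within the wild-type range. Each call was lost without wild-type replicate 1 (0.0632 and 0.0576), gastrin-infused replicate 2 (0.0632 and 0.0557) or gastrin-infused replicate 3 (0.0747 and 0.0674). Rab4a, a GTPase of endosome recycling, read 695, 670 and 473 in wild type, 1153, 1156 and 916 after saline and 1694, 1636 and 1731 after gastrin. It rose by 1.48 ± 0.15 (2.79-fold, adjusted p = 0.0101) and passed without any 1 array; a second probe set gave 0.89 ± 0.20 (adjusted p = 0.175). Dock6 read 180, 190 and 191 against 454, 506 and 406 (1.28 ± 0.14, adjusted p = 0.0134; 0.0557 without gastrin-infused replicate 2).

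Uqcrc2, a core subunit of respiratory complex III, had a small and tight rise. It read 6427, 6811 and 6125 in wild type, 8608, 8584 and 8235 after saline, 10086, 10045 and 9648 after gastrin and 6887, 6837 and 6804 in the double knockout. The difference of 0.62 ± 0.06 (1.54-fold, adjusted p = 0.00501) passed in every leave-out, and a second probe set gave 0.32 ± 0.11 (adjusted p = 0.348). Of 28 oxidative phosphorylation genes it was the single call; the median was 0.07, with 21 above 0. Ppargc1a, the coactivator that drives mitochondrial biogenesis, fell on 1 of its 5 probe sets. That set read 840, 1142 and 889 in wild type, 480, 497 and 392 after saline and 330, 350 and 460 after gastrin, with no overlap (-1.33 ± 0.17, adjusted p = 0.0282). The other 4 lay between 0.12 and 0.32 and did not pass. The call was lost without wild-type replicate 2 (0.0796), wild-type replicate 3 (0.0502), gastrin-infused replicate 1 (0.0737) or gastrin-infused replicate 2 (0.0900). Among 13 genes of the PGC-1 and mitochondrial biogenesis list it was the single call, and the median was 0.13.

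**Figure D3:**
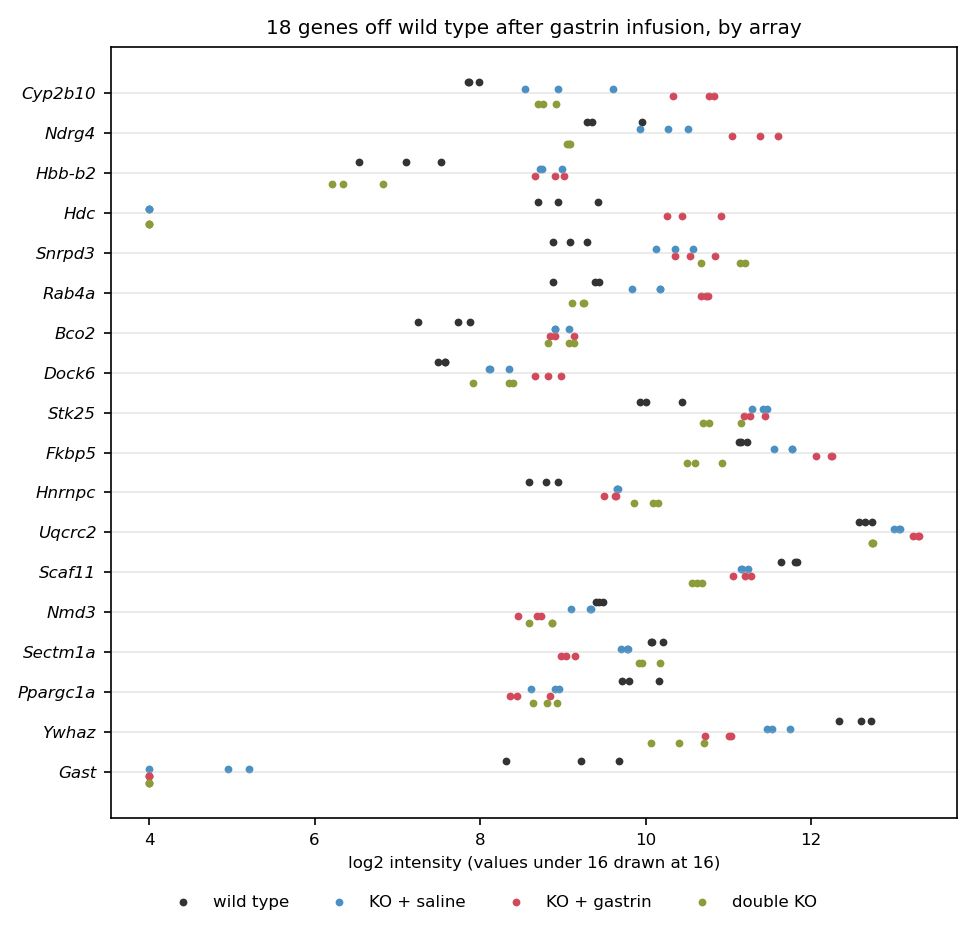
Log2 intensity on every array for the 18 genes that the naming rule gave, sorted by their difference between gastrin-infused knockout (red) and wild type (black); values under 16 are drawn at 16. In each gene the red points lie wholly to 1 side of the black points, from Gast (-5.07) to Cyp2b10 (2.74).

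Fkbp5, a co-chaperone that restrains the glucocorticoid receptor and is itself induced by it, rose from 2274, 2244 and 2395 in wild type to 4270, 4847 and 4890 after gastrin. Saline-infused arrays lay between them at 3499, 3501 and 2993, and the double knockout was lowest at 1939, 1545 and 1451. The rise was 1.02 ± 0.12 (2.02-fold, adjusted p = 0.0184). It was lost without wild-type replicate 1 (0.0576), wild-type replicate 2 (0.0745), gastrin-infused replicate 2 (0.0632) or gastrin-infused replicate 3 (0.0710), and a second probe set gave 0.70 ± 0.18 (adjusted p = 0.218). Of 19 glucocorticoid-responsive genes 17 lay above 0, with a median of 0.31 (0.19 to 0.31 on leaving out each array) and Fkbp5 as the single call. At unadjusted p under 0.05, 3 were higher (5.49% of all genes). In the saline-infused knockout 17 of the 19 also lay above the same wild-type arrays, with a median of 0.20. Between gastrin-infused and saline-infused knockout the median was 0.07. Ddit4, which restrains mTOR, read 1322, 1434 and 1586 against 2076, 2583 and 2633 (0.74 ± 0.14, adjusted p = 0.105). Klf9, a transcription factor, read 3373, 3600 and 3048 against 4510, 4047 and 4749 on the brightest of its 7 probe sets (0.41 ± 0.10, adjusted p = 0.198). The next 3 in brightness gave -0.05, 0.08 and -0.10, with overlapping groups. Tsc22d3, a classical glucocorticoid target, differed by 0.05 (interval -0.29 to 0.38).

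Of the other rises, some had saline-infused values in the range of the gastrin-infused ones. Stk25, a kinase of the Golgi, read 1026, 976 and 1393 in wild type, 2824, 2504 and 2741 after saline and 2791, 2454 and 2339 after gastrin (1.17 ± 0.16, adjusted p = 0.0413). Bco2, which cleaves carotenoids, read 152, 235 and 213, then 480, 481 and 541, then 459, 564 and 479 (1.34 ± 0.16, adjusted p = 0.025). Wild type stood alone in both genes, for the double knockout was also above it, at 1662 to 2282 and at 451 to 562. Hbb-b2, a beta globin with near-identical copies, read 93, 185 and 137 in wild type, 423, 429 and 508 after saline, 405, 516 and 480 after gastrin and 81, 74 and 113 in the double knockout (1.80 ± 0.25, adjusted p = 0.0413). A second Hbb-b2 probe set gave 0.24 ± 0.42, and Hba-a1, an alpha globin, differed by 0.13 (interval -0.38 to 0.64). The 6 measured genes of the blood list, the called Hbb-b2 among them, had a median of 0.42, with 4 above 0. Of these 6, 3 were higher at unadjusted p under 0.05 and 2 lay wholly above wild type (5.49% and 7.86% of all genes). Alas2, the first enzyme of haem synthesis in red cells, was at 0.72 (limma adjusted p = 0.380). The sums of the list were 785 to 1080 in wild type and 1319 to 1598 after gastrin. They were 1310 to 1545 after saline and 706 to 1051 in the double knockout. The part of blood in other results was not tested. Stk25 was kept only without wild-type replicate 3, with 0.0898 to 0.120 without wild-type replicates 1 and 2 or any gastrin-infused replicate. Bco2 was lost without gastrin-infused replicates 1, 2 and 3 (0.0528, 0.0797 and 0.0747). Hbb-b2 was kept only without wild-type replicate 2 (0.0576 to 0.112 otherwise).

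Both RNA-processing rises rested on 1 probe set each. Snrpd3, a core protein of the spliceosome, read 625, 470 and 545 in wild type and 1828, 1315 and 1489 after gastrin (1.49 ± 0.19, limma adjusted p = 0.0307). It read 1118, 1308 and 1523 after saline and 1628, 2356 and 2266 in the double knockout. Its other probe sets gave -0.13 and -0.12, and the call was lost on leaving out any of the 6 arrays (0.0515 to 0.0969). Hnrnpc, which packages nascent transcripts, read 384, 490 and 443 against 793, 720 and 797 (0.82 ± 0.11, limma adjusted p = 0.0307). Hnrnpc was at 803, 806 and 815 after saline and 928, 1139 and 1087 in the double knockout. On these probe sets wild type lay below every other array in both genes. The brighter Hnrnpc probe set gave -0.20 ± 0.12, and the call was kept only without wild-type replicate 2 (0.0601 to 0.0995 without the others). Of 34 splicing factor and hnRNP genes, each by its brightest probe set, 0 passed, and the median was -0.05.

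Sectm1a, a secreted and membrane protein that acts on T cells, was the only fall besides Gast, among those named by rule, that passed in every leave-out. It read 1084, 1186 and 1068 in wild type, 874, 832 and 887 after saline, 567, 506 and 526 after gastrin and 971, 1158 and 995 in the double knockout. Gastrin-infused arrays were the lowest of the 12, and the fall of 1.06 ± 0.08 (log2 difference -1.06) had an adjusted p of 0.0026. Naip5, a sensor of bacterial flagellin, read 374, 396 and 355 in wild type and 122, 150 and 190 after gastrin (-1.31 ± 0.16, adjusted p = 0.0226). After saline it was at 94, 124 and 108, and in the double knockout at 285, 317 and 299, nearer wild type. The Naip5 call was lost without wild-type replicate 1 (0.0632), wild-type replicate 2 (0.0851) or gastrin-infused replicate 2 (0.0737).

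A further 3 falls passed on 1 probe set among several. Ywhaz, a phosphoserine-binding adaptor, read 6246, 6788 and 5183 in wild type, 2961, 3430 and 2838 after saline, 2093, 1681 and 2059 after gastrin and 1076, 1353 and 1678 in the double knockout (-1.64 ± 0.17, adjusted p = 0.0133; 0.0543 without gastrin-infused replicate 2). Of its other 6 probe sets 5 lay above 0, between 0.02 and 0.24, and 1 gave -1.66 ± 0.42 without passing. Scaf11, a splicing-related protein, read 3576, 3642 and 3198 against 2134, 2481 and 2347 (-0.58 ± 0.08, adjusted p = 0.041), with -0.19, 0.38 and -0.12 on its other sets. Nmd3, the export adaptor of the large ribosomal subunit, read 691, 674 and 717 against 426, 352 and 414 (-0.81 ± 0.11, adjusted p = 0.0413), and its brighter probe set gave 0.31 ± 0.11. Nmd3 was lost without any 1 of the 6 arrays (0.0718 to 0.114), and Scaf11 was kept only without wild-type replicate 3 (0.0596 to 0.114 otherwise). Over the 22 called genes, 14 had several probe sets; 2 of these had more than 1 called, and 7 had another of opposite sign.

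The dimmest calls were bounds. Gnaz, a G protein alpha subunit of nerve and endocrine cells, read 142, 105 and 128 in wild type and -51, -34 and -50 after gastrin, at least 1.40-fold lower (adjusted p = 0.000566). After saline it was at -152, -74 and -20, so wild type was the single group with signal. Adra2c, an alpha adrenergic receptor, read 127, 71 and 84 against -57, 2 and -48, at least 1.03-fold lower (adjusted p = 0.0133; 0.0557 without gastrin-infused replicate 2), while the saline arrays were at 89, 42 and 62. Cacng5, a calcium channel gamma subunit, read 29, 33 and 17 against 113, 149 and 112, at least 1.54-fold higher (adjusted p = 0.0462, lost without any 1 of the 6 arrays, 0.0653 to 0.121), and its brighter probe set gave -0.07. The probe set without a gene name read 84, 102 and 79 against -109, -50 and -19, and no fold is given because both groups were near the noise.

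Genes of cell division lay below wild type as a group while none passed singly. Of 23 mitosis genes 22 lay below 0, with a median of -0.65; 8 were lower at unadjusted p under 0.05 and 10 had separate groups. Over all genes 5.62% were lower at that level and 9.01% were separate and lower. The summed intensity of the list was 15159, 13979 and 11605 in wild type and 7621, 9969 and 8198 after gastrin, with no overlap. Mki67, the proliferation marker, read 1503, 1652 and 1017 against 696, 813 and 695 (-0.89 ± 0.33, adjusted p = 0.350). Birc5, survivin of the mitotic spindle, read 1198, 918 and 863 against 428, 533 and 484 (-1.03 ± 0.31, adjusted p = 0.264). Of 22 DNA replication genes 19 lay below 0, with a median of -0.50, 12 lower at unadjusted p under 0.05 and 13 separate. Rrm2, the ribonucleotide reductase subunit that peaks in S phase, read 1251, 906 and 1060 against 731, 350 and 488 (-1.09 ± 0.35, adjusted p = 0.298). The summed replication list was 23779 to 26553 in wild type and 18316 to 23014 after gastrin. Leaving out each array gave medians of -0.51 to -0.76 for mitosis and -0.40 to -0.66 for replication; without the 2 wild-type arrays of high Gapdh ratio they were -0.42 and -0.37. With the ratio as a covariate the medians were -0.55 for mitosis (22 of 23 below 0) and -0.48 for replication (19 of 22 below 0). Saline-infused sums were 12104 to 17834 and 25420 to 31881.

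Interferon-induced genes had the same tilt. Of 26 genes 21 lay below 0 with a median of -0.50 (-0.36 to -0.57 on leaving out each array), 0 passed, 6 were lower at unadjusted p under 0.05 (5.62% of all genes) and 10 were separate and lower (9.01% of all genes). With the Gapdh ratio as a covariate the median was -0.36. The summed list was 23400 to 26147 in wild type, 18663 to 20562 after gastrin and 30639 to 59863 after saline. Usp18, which damps interferon signalling, read 818, 888 and 719 against 360, 407 and 461 (-0.98 ± 0.37, adjusted p = 0.355). Irgm1, an interferon-induced GTPase, read 373, 480 and 405 against 235, 229 and 251 (-0.81 ± 0.30, adjusted p = 0.351). Irf1, an interferon-regulated transcription factor, differed by 0.23 (interval -0.12 to 0.57), so the members did not all lie on 1 side.

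**Figure D4:**
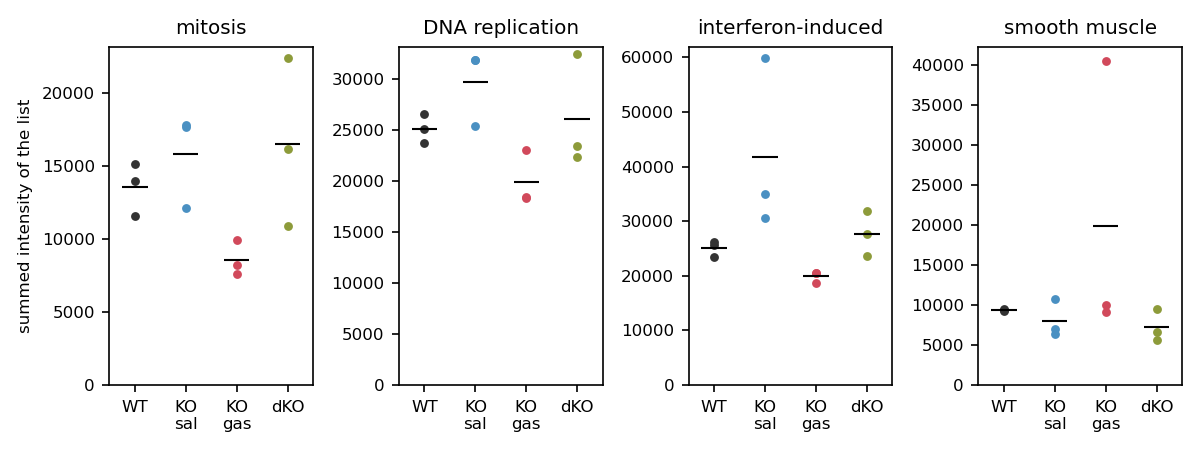
Summed intensity of 4 gene lists on each array (points; lines are group means; WT, wild type; KO, knockout; dKO, double knockout), on axes from 0. Mitosis, replication and interferon sums after gastrin lie below every wild-type array, and smooth muscle is set apart on 1 gastrin-infused array at 40467.

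Stress and immediate early lists leaned lower by smaller amounts. Of 19 immediate early genes 14 lay below 0 (median -0.28, 0 passed, 9 separate and lower, against 9.01% of all genes). Fos, a subunit of the AP-1 factor, read 4411, 5257 and 4232 against 2632, 2997 and 2016 (-0.88 ± 0.29, adjusted p = 0.317), and Egr1, a growth-signal factor, read 2608, 3883 and 2518 against 1115, 1267 and 1224 (-1.29 ± 0.49, adjusted p = 0.356). Myc read 478, 525 and 444 against 604, 682 and 705, on the other side (0.46 ± 0.19, adjusted p = 0.394). Of 14 heat shock genes 11 lay below 0, with a median of -0.23 and 0 calls; without the 2 wild-type arrays of high Gapdh ratio the median was -0.11.

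Markers of neighbouring tissue moved with single arrays. The smooth muscle list had a median of 0.67 (10 of 11 above 0), which was -0.10 without gastrin-infused replicate 1; its sums were 9240 to 9500 in wild type and 40467, 9968 and 9097 after gastrin. The forestomach squamous list had a median of -0.47 (14 of 18 below 0), which was 0.01 without gastrin-infused replicate 1 and 0.10 without the 2 wild-type arrays of high Gapdh ratio; its sums were 28376 to 51113 and 17415 to 45696. Collagen and stroma genes had a median of -0.02. The part of these tissues in other results was not tested beyond the leave-outs given.

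**Figure D5:**
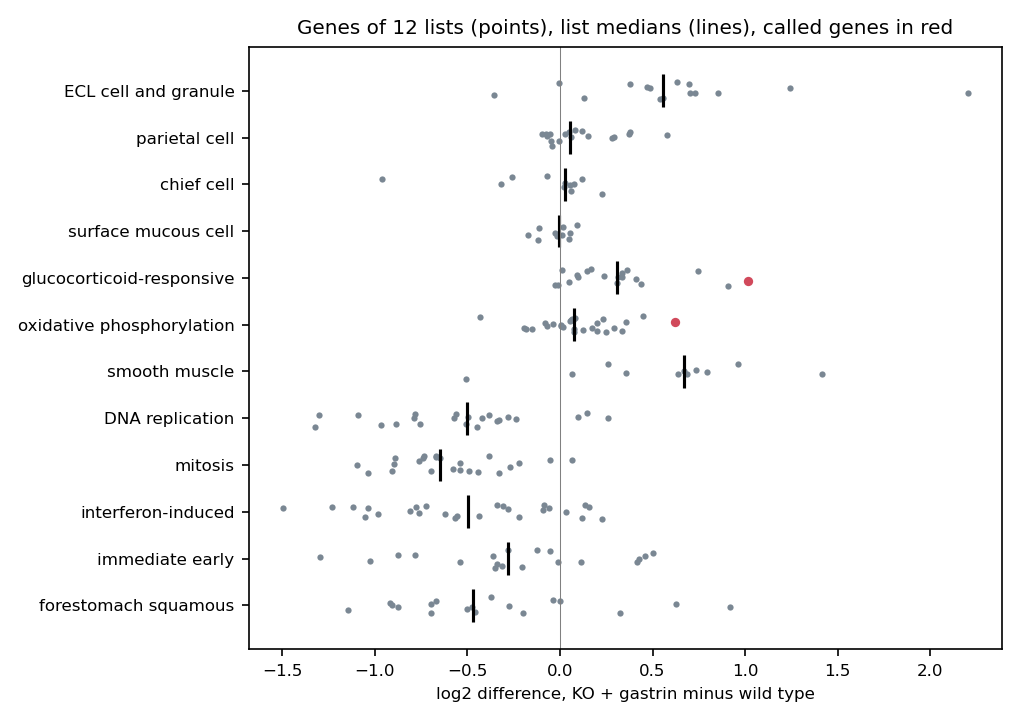
Log2 difference between gastrin-infused knockout and wild type for the genes of 12 lists (points, spread vertically for sight), with list medians as lines and called genes in red. ECL genes sit to the right (median 0.56), mitosis and replication to the left (-0.65 and -0.50), and parietal, chief and surface mucous lists near 0.

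A comparison of saline-infused gastrin knockout with the double knockout sets an infused against an uninfused group, neither with gastrin, on 6 arrays that share none with the comparison above; CCK genotype differs along with infusion. Both comparisons come from 1 fit over 12 arrays and share its estimate of the spread. There 1352 of 22626 probe sets passed (5.98%), 624 higher after saline (2.76%) and 728 lower (3.22%). Of the 15 probe sets higher in gastrin-infused knockout than wild type, 6 were also higher here (40% of the 15 and 0.962% of the 624) and 0 were lower. These were Uqcrc2 (0.31), Fkbp5 (1.03), Rab4a (0.86), Hbb-b2 (2.36) and both Ndrg4 probe sets (1.00 and 1.17). Of the 10 lower ones, 1 was also lower (10% of the 10 and 0.137% of the 728), Naip5 (-1.47). The other 4 calls went the opposite way (40% of the 10 and 0.641% of the 624): Adra2c, Ywhaz, Nmd3 and Scaf11 were lower in gastrin-infused knockout than wild type and higher after saline than in the double knockout. Cyp2b10 (0.24), Hdc (0.00, both groups within the noise), Stk25 (0.52) and Sectm1a (-0.26) were among the 14 not called. With only its own 6 arrays fitted, this comparison had 208 calls. Of the 25, 3 were among them: Hbb-b2 (2.36) was higher, Naip5 (-1.47) lower, and Scaf11 (0.56) higher, against its direction in the gastrin-infused knockout. With each comparison fitted on only its own 6 arrays, 0 of the 3 calls of the first were among the 208. The double-knockout arrays differed from the rest in their bright end (brightest value 65365 to 71514 against 88899 to 113441) and BioC control (1784 to 2307), and the part of this in the counts was not tested.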

How the data were processed

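The authors deposited an intensity for each probe set on each array, linear and rounded to whole numbers, with some values under 0. How probe sets were summarised, background-corrected and scaled is not given in the sources used here. All 12 columns were used. Of 22690 probe sets 64 controls were left out; of 22626 tested, 20380 had 1 gene symbol, 691 several and 1555 none, and 20351 were matched to RefSeq genes of GRCm38.p6, which changed 0 symbols. Array medians were alike, so no scaling was added. Values under 16 were raised to 16 and log2 taken. A group-means model over 12 arrays was fitted with limma 3.58.1 in R 4.3.3 (8 residual and 1.10 prior degrees of freedom), with Benjamini-Hochberg adjustment over all probe sets and a threshold of 0.05; intervals are 95%. The number of arrays limits the precision. Noise was the 1st percentile of an array with its sign turned; where a group lay within it, the fold is a bound.

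Genes were named by rule: called, 1 symbol, separate groups, a mean of at least 417 (the median over probe sets) in the brighter group, and up to 12 rises and 12 falls, of which 12 and 6 were found. Gnaz, Adra2c, Naip5, Cacng5 and the unnamed call fall outside it and were chosen after their values were seen. Of 771 genes in 45 lists 672 were measured, each by its brightest probe set. The members and lists were chosen with earlier results of these data known. Alternatives were other scalings, floors, filters and moderation, fewer arrays, a replicate block, the Gapdh ratio, and leaving out each array.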

Additional observations from a re-analysis of the deposited data

How the results depend on the processing

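The count of 25 (15 higher, 10 lower) kept within 1.5 times under median centring and a floor of 1. It was 51 (29 and 22) after quantile normalization, 74 (40 and 34) with dim probe sets filtered out, 62 (36 and 26) with a floor of 64 and 78 (43 and 35) with trended, robust moderation. It was 3 (0 and 3) when only the 6 arrays were fitted, with 2611 at unadjusted p under 0.05, and 11 (6 and 5) with the Gapdh ratio as a covariate. Without the 2 wild-type arrays of high ratio it was 42, of which 30 were lower; the lone wild-type array is then assumed to vary like the other groups. With the replicate number as a block it was 8 (3 and 5), though the numbers did not pair the samples (correlation of same-numbered deviations -0.12, -0.01 and -0.02). Leaving out 1 array gave 13 (without gastrin-infused replicate 2) to 43 (without wild-type replicate 3), with 7 to 27 higher and 6 to 16 lower. For saline-infused against double knockout, 1352 (624 and 728) became 208 (75 and 133) with only its 6 arrays, 472 lower with the Gapdh ratio, and 496 to 928 (199 to 519 and 297 to 561) without 1 array. The cause was not tested in each case. No named gene that had passed turned its sign under an alternative. Dim genes are limited by signal over background: 5 of the 25 calls have a group within the noise.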

Other observations

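Some members of the other lists were separate from wild type, on the brightest probe set, without passing; these examples were chosen after their values were seen. Btc, betacellulin, a ligand of the EGF receptor, read 1394, 1197 and 1146 in wild type and 948, 827 and 736 after gastrin (-0.58 ± 0.11, limma adjusted p = 0.105). Tfrc, the transferrin receptor, read 5238, 4759 and 4330 against 7905, 9853 and 6615 (0.75 ± 0.22, adjusted p = 0.264) on the brightest of its 3 probe sets, with 0.13 and 0.82 on the others, while the median of 17 iron genes was 0.03. Cybrd1, a ferric reductase, read 481, 477 and 411 against 663, 742 and 847 (0.71 ± 0.13, limma adjusted p = 0.0829), and 1056, 956 and 816 after saline. Among 20 clock genes the median was 0.06, with 5 separate and lower and 1 separate and higher (9.01% and 7.86% of all genes). Dbp, an output gene of the clock, read 669, 266 and 393 in wild type and 134, 75 and 121 after gastrin (-1.95 ± 0.58, limma adjusted p = 0.265). After saline Dbp was at 137, 72 and 160. Npas2, of the activating arm, read 148, 206 and 184 against 332, 389 and 446 (1.12 ± 0.31, limma adjusted p = 0.253). S100a14, a calcium-binding protein of squamous epithelium, read 2190, 1655 and 2037 against 1326, 1237 and 1118 (-0.67 ± 0.11, adjusted p = 0.0631), and H2-Ab1, an antigen-presenting molecule, read 914, 1047 and 1210 against 390, 344 and 643 (-1.25 ± 0.30, adjusted p = 0.199) on its brightest probe set. The next H2-Ab1 probe set read 454, 545 and 676 against 327, 403 and 528 (-0.42), and there the groups overlapped. A dimmer one read 119, 155 and 85 against 50, 2 and 53 (-1.74), separate but within the noise after gastrin. Of 9 measured genes of its list (MHC class II), 4 lay above 0 and 5 below. In that list 1 gene was separate and higher and 3 were separate and lower (7.86% and 9.01% of all genes). None of these passed the test.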
